A study of Rattus norvegicus with 10 samples.

Results

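The genes described here are 44 targets of the tumour suppressor p53 and regulators of apoptosis, chosen by name, and their RNA was read in testes of rat pups at postnatal day 6. Every array probe whose RefSeq transcript belonged to one of the 44 genes was taken, which gave 55 probes of the 30367 on the array for 41 genes. Sesn1, Ddb2 and Eda2r matched no probe. Of the 41 genes, 39 had a probe that was well above background on at least 5 of the 10 arrays, with 53 such probes among 21892 tested in all, and these 39 are among 11561 genes tested. Rrm2b was well above background on 0 arrays, and Pmaip1, which encodes the BH3-only protein Noxa, on 2 C arrays and 0 T arrays, so no difference is given for either.

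The pups came from Brown Norway males mated to Sprague Dawley females, and per the series' design the males had received saline or BEP for 9 weeks and then recovered for 9 weeks before the testes of their young were taken. BEP is not spelled out in the labels; in the treatment of testicular cancer the letters stand for bleomycin, etoposide and cisplatin, a combination that damages DNA. The 10 arrays carry a sire code with the letter C or T, 5 of each, and C for saline and T for BEP is an inference that no label states, so the groups are called C and T. The pups were not treated themselves, no genotype is given, and how many pups or testes stand behind an array is not stated, so p-values measure only the spread between these 10 samples.

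The p53 protein is a transcription factor that DNA damage stabilises, and its targets include inhibitors of the cell cycle, its own inhibitor Mdm2, DNA repair genes and genes that promote cell death. In the mitochondrial pathway of apoptosis, BH3-only proteins bind and block survival proteins such as BCL2 and MCL1, which frees BAX and BAK1 to open the outer membrane; cytochrome c then leaves and assembles with APAF1 and caspase 9. In the testis of young rodents this machinery is known for removing germ cells, both in the normal early wave of germ cell death and after genotoxic exposure.

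For 33 of the 44 genes RefSeq (assembly GRCr8) gave a promoter window of 300 bases, from 250 bases before to 50 bases after the gene's start. Each window was searched on both strands for the p53 half-site, the short consensus that one pair of p53 molecules binds and that equals its own reverse complement. It was present in 5 of the 33 windows (15.2%), against 2671 of 33469 windows of all genes (7.98%). The 5 were Cdkn1a, Ccng1, Gadd45a, Sesn1 and Aen. All were among the 18 members with a window in the roles named for p53 (27.8%). Of the 15 windows of the other members, 0 held the half-site. The split is by role only. The p53 targets Bax and Bbc3 were filed under other roles, and neither had a window to search. A pair of exact half-sites at most 13 bases apart would form a full site. It occurred in 0 of these 33 windows and in 20 of all windows (0.0598%). Only exact matches to the consensus were counted, so a full site with a mismatch would be missed. In the windows printed below, the bases just after the marked half-site in Cdkn1a and just before it in Ccng1 come close to the consensus without matching it exactly. These matches are descriptions of letters in a short window. The windows of Cdkn1a and Ccng1 are shown because these genes, as given below, are the member that differed between slides and the one with a single high array; capitals mark the half-site, which begins at base -201 relative to the gene's start in Cdkn1a (chr20:7150682-7150981, plus strand) and at base -232 in Ccng1 (chr10:25684827-25685126, minus strand).
Cdkn1a: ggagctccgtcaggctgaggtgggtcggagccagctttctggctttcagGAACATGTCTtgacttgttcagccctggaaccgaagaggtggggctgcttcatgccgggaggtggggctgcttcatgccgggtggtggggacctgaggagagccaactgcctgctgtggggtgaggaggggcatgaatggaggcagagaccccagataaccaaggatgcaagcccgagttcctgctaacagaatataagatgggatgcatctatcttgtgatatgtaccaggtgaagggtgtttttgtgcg
Ccng1: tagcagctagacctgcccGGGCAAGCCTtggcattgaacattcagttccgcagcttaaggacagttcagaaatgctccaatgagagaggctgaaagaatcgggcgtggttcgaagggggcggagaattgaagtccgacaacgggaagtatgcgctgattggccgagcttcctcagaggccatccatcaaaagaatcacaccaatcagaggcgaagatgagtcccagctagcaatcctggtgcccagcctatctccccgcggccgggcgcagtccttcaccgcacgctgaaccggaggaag

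The 75th percentile of the signal ranged from 1525 to 2686 intensity units between arrays, 70.4% to 74.8% of probes were well above background, and 0 spots were saturated. Values of any 2 arrays correlated at 0.9899 or more. The arrays lay on 2 slides, slide 1 with 3 C and 2 T arrays and slide 2 with 2 C and 3 T arrays. Testis markers were present: 12 of 13 Sertoli cell genes, 12 of 14 germ cell genes and 7 of 8 Leydig cell genes were measured, while the Leydig cell receptor gene Lhcgr was well above background on 0 arrays. Summed levels, on a linear scale relative to each array's 75th percentile, ranged over the germ cell markers from 20.6 to 23.1 in C and from 22.2 to 25.7 in T, and over the Sertoli cell markers from 82 to 92 in C and from 73 to 90 in T. The germ cell sum rests mostly on Uchl1, whose mean on a log2 scale was 4.20 in C and 4.32 in T. The next highest, Dazl, had 0.050 and 0.20. Of the 12 germ cell genes, 9 were higher and 3 lower in T. Macrophage markers summed to between 2.41 and 2.76 in C and between 2.51 and 2.66 in T, and erythroid markers to between 119 and 220 in C and between 170 and 222 in T. The part of these markers in any difference below was not tested. In whole testis, fewer cells of a type and less RNA per cell cannot be told apart.

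Levels below are log2 of the scanner's processed signal minus the array's 75th percentile, so 0 is the 75th percentile of that array, and they compare one probe between arrays, never one gene with another. Differences are T minus C on that log2 scale, from a limma model over all 21892 probes with Benjamini-Hochberg adjustment, and each is given with its standard error (SE). For a gene with several probes, the one with the highest mean stands for it.

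No member differed between T and C past the threshold of 0.05 for the adjusted p. The count was 0 of 53 probes, beside a background of 0% of all 21892 probes, and the lowest adjusted p of any probe was 0.9985. At an unadjusted p under 0.05, 1 of the 53 member probes was higher in T, that of Bcl2l11, against 1.59% of all probes, and 0 were lower, against 2.38% of all probes. On 0 member probes did all T arrays lie above all C arrays (0.192% of all probes) or below them (0.53% of all probes). These shares are near the background, and none sets the members apart. Of the 39 genes 21 were higher and 18 lower in T, with a median difference of 0.031, where 5326 of all genes were higher and 6235 lower with a median of -0.0089.

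**Figure D1:**
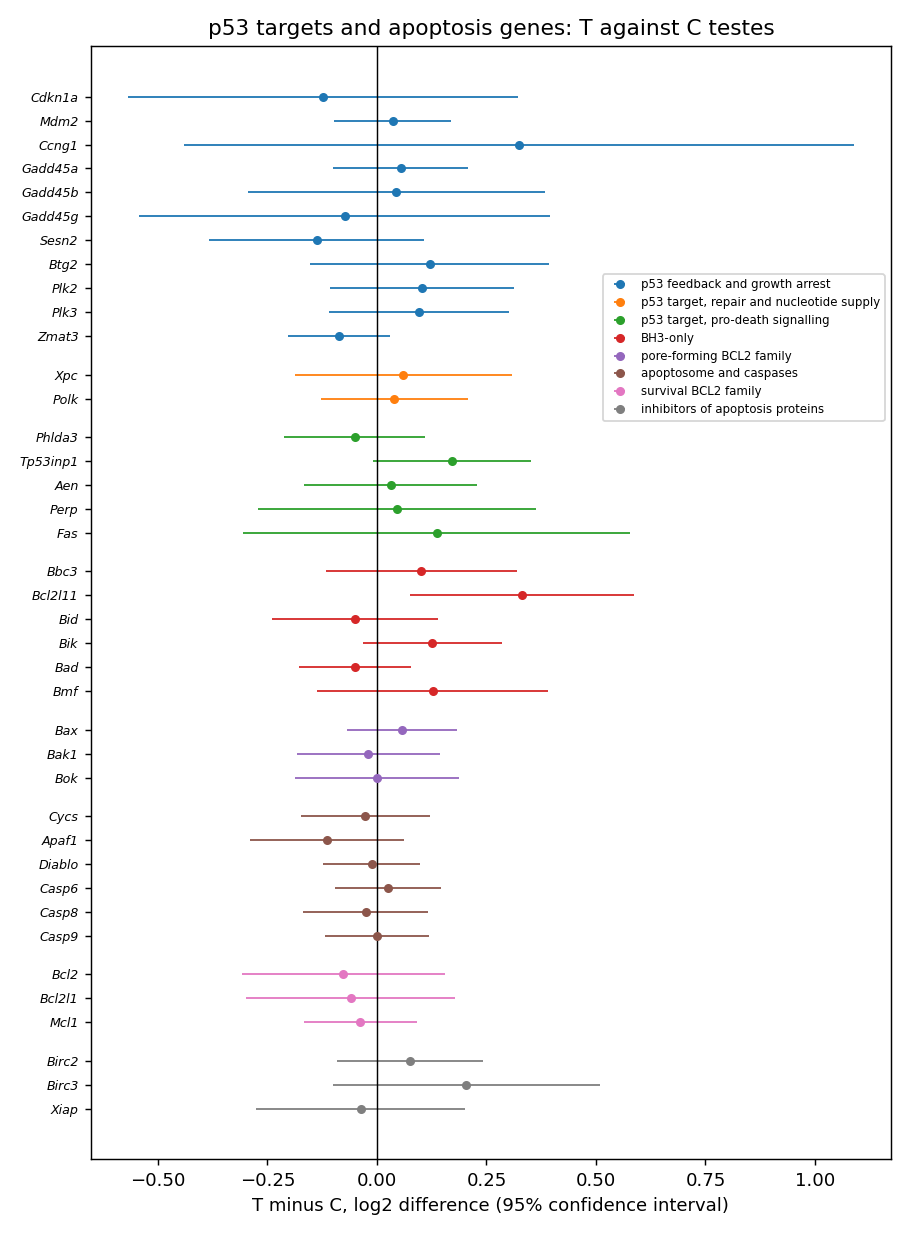
T minus C log2 difference of the 39 measured members (points) with 95% confidence intervals (lines), coloured by role, with 5 arrays in each group. Bcl2l11 alone has an interval that does not reach 0 (difference 0.33), and the widest interval is that of Ccng1, with 0.76 to either side of 0.33.

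The precision of these comparisons is given by the intervals. The 95% confidence interval lay inside 1.5-fold in either direction for 37 of the 39 members (94.9%, against 90.3% of all genes), the exceptions being Ccng1 and Bcl2l11, and inside 2-fold for all 39 but Ccng1 (98.3% of all genes). Across the 10 arrays the median SD of a member was 0.133 and that of all genes 0.141, and 19 of the 39 members had an SD above the latter.

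Among the 11 measured genes of p53 feedback and growth arrest, 7 were higher and 4 lower in T, with a median difference of 0.045, and 0 passed the test. Cdkn1a encodes p21, the inhibitor of cyclin-dependent kinases through which p53 halts the cell cycle. Its brighter probe read 4.75, 4.55, 4.18, 4.23 and 3.89 in C replicates 1 to 5 and 4.62, 4.56, 4.13, 3.89 and 3.79 in T replicates 1 to 5. The arrays of both groups covered nearly the same span, and the highest values of each came from the same slide. The group means were 4.32 ± 0.33 (SD, n = 5) in C and 4.20 ± 0.38 (SD, n = 5) in T. The difference was -0.12 ± 0.20 (SE), and it was 0.094 within slide 1 and -0.13 within slide 2. A second, dimmer Cdkn1a probe for the same transcript gave 0.050 ± 0.11 (SE).

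Mdm2, the ubiquitin ligase that is both a target and the main inhibitor of p53, read -0.32, -0.53, -0.40, -0.53 and -0.42 in C replicates 1 to 5 and -0.43, -0.34, -0.49, -0.37 and -0.39 in T replicates 1 to 5. All T values lay inside the range of the C values. The T minus C difference was 0.036 ± 0.060 (SE), and it stayed between 0.013 and 0.072 in 24 other ways of processing the data.

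Zmat3, a p53 target that encodes an RNA-binding zinc finger protein, had the smallest unadjusted limma p of its role, still above 0.05. Its levels were 0.21, 0.21, 0.15, 0.13 and 0.14 in C replicates 1 to 5 and 0.02, 0.14, 0.15, 0.04 and 0.06 in T replicates 1 to 5. All 5 T arrays lay below the median of the C arrays and 3 of them below every C array, while the other 2 overlapped them. The difference was -0.086 ± 0.053 (SE), -0.11 within slide 1 and -0.050 within slide 2, and a second, dim probe gave -0.086 ± 0.14 (SE).

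Sesn2, a stress-induced sestrin that restrains the growth kinase complex mTORC1, read -3.07, -3.06, -3.30, -3.30 and -3.22 in C replicates 1 to 5 and -3.17, -3.17, -3.22, -3.37 and -3.72 in T replicates 1 to 5. The T replicates 4 and 5 were the lowest of the 10 arrays, and the other 3 T arrays lay among the C arrays. The difference was -0.14 ± 0.11 (SE), with -0.023 within slide 1 and -0.18 within slide 2.

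Ccng1 encodes cyclin G1, a feedback regulator of p53. Its probe read -3.13, -2.92, -3.09, -3.09 and -3.01 in C replicates 1 to 5 and -3.08, -3.10, -3.09, -3.19 and -1.16 in T replicates 1 to 5. One array stood apart, T replicate 5, and the other 9 lay between -3.19 and -2.92 with the groups mixed. Both spots of the probe on that array were bright, at 1015 and 1211 intensity units, where the spots of the other arrays read 171 to 365 units, and neither was marked as an outlier by the scanner software. The difference was 0.33 ± 0.35 (SE) over all arrays and -0.066 ± 0.065 (SE) without T replicate 5, so its direction rests on that array. Of all genes tested, 1.18% had a larger SD across the 10 arrays than the 0.611 of Ccng1.

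The GADD45 genes encode small stress sensors that bind kinases and the replication clamp PCNA. Gadd45a differed by 0.054 ± 0.070 (SE), Gadd45b by 0.045 ± 0.15 (SE) and Gadd45g by -0.074 ± 0.21 (SE). Gadd45g spread over 1.22 log2 units, from -0.48 in T replicate 1 to 0.74 in T replicate 3, with all C arrays in between. Btg2, an antiproliferative gene, differed by 0.12 ± 0.12 (SE). The polo-like kinase genes Plk2 and Plk3 differed by 0.10 ± 0.095 (SE) and 0.096 ± 0.093 (SE). Plk2 was above the C median in 5 of 5 T arrays and Plk3 in 4 of 5, but for both the groups overlapped.

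Both measured DNA repair genes among the p53 targets overlapped between the groups. Xpc, which recognises distorted DNA in nucleotide excision repair, read -1.64, -1.91, -1.70, -1.73 and -1.47 in C replicates 1 to 5 and -1.90, -1.75, -1.66, -1.38 and -1.47 in T replicates 1 to 5. The T arrays held the highest value, and the lowest belonged to C replicate 2. The difference was 0.060 ± 0.11 (SE), with -0.072 within slide 1 and 0.098 within slide 2.

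Polk encodes a DNA polymerase that copies past damaged bases. Its levels were -2.04, -2.24, -2.09, -2.40 and -2.24 in C replicates 1 to 5 and -2.18, -2.15, -2.22, -2.05 and -2.22 in T replicates 1 to 5. The T arrays lay within the C range, and all 5 of them were above the C median. Its difference was 0.039 ± 0.076 (SE), and a dimmer probe gave -0.023 ± 0.13 (SE).

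Of the 5 measured p53 targets that signal towards cell death, 4 were higher and 1 lower in T, with a median difference of 0.046, and 0 passed the test. Tp53inp1, a nuclear stress protein that promotes p53 activity, read -3.27, -3.01, -3.21, -2.92 and -3.09 in C replicates 1 to 5 and -3.06, -2.84, -2.88, -3.01 and -2.86 in T replicates 1 to 5. Every T array was above the C median and 3 were above every C array. The difference was 0.17 ± 0.081 (SE), 0.22 within slide 1 and 0.087 within slide 2, and it stayed between 0.079 and 0.22 over the 24 alternatives.

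Phlda3, which inhibits the survival kinase AKT, read -1.41, -1.61, -1.73, -1.75 and -1.58 in C replicates 1 to 5 and -1.61, -1.69, -1.61, -1.72 and -1.70 in T replicates 1 to 5. The 5 T arrays lay close together inside the wider C range. The difference was -0.051 ± 0.073 (SE). Aen, a nuclease of apoptosis, differed by 0.031 ± 0.089 (SE), and Perp, a membrane protein of the desmosome, by 0.046 ± 0.14 (SE). Fas, the death receptor, differed by 0.14 ± 0.20 (SE) and was among the most variable members, from -6.55 in T replicate 2 to -5.50 in T replicate 3.

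**Figure D2:**
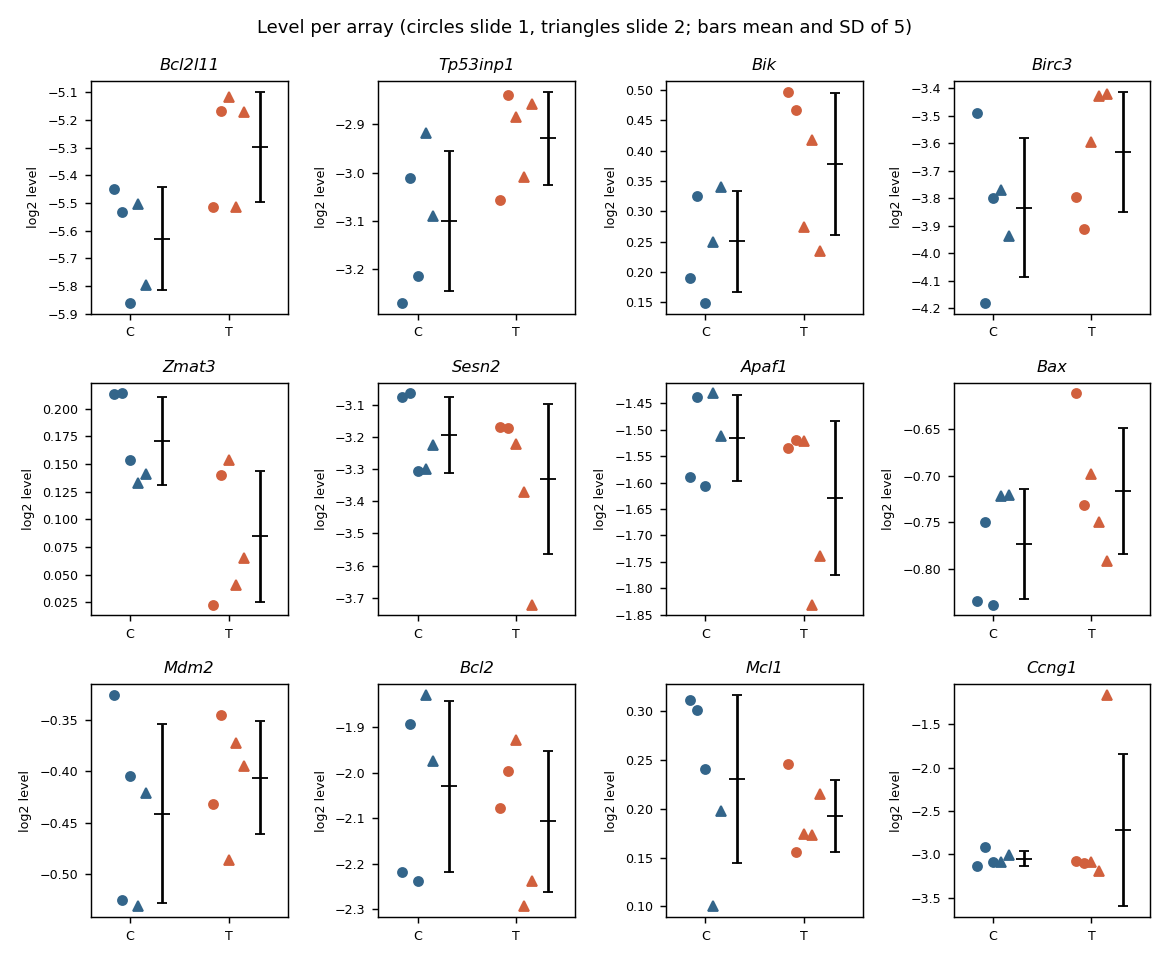
Log2 level of 12 members on each array (C blue, T orange; circles slide 1, triangles slide 2), with the mean and SD of the 5 arrays of each group beside the points. Bcl2l11 has 3 T arrays above every C array, Zmat3 has 3 T arrays below every C array, and Ccng1 has one T array at -1.16, far above the other 9.

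Among the 6 measured BH3-only genes 4 were higher and 2 lower in T, with a median difference of 0.11. Bcl2l11 encodes BIM, a BH3-only protein that binds every major survival protein of the BCL2 family. Its probe read -5.45, -5.53, -5.86, -5.50 and -5.80 in C replicates 1 to 5 and -5.51, -5.17, -5.12, -5.52 and -5.17 in T replicates 1 to 5. The T replicates 2, 3 and 5 were above every C array, and T replicates 1 and 4 lay among the higher C arrays. The means were -5.63 ± 0.19 (SD, n = 5) in C and -5.30 ± 0.20 (SD, n = 5) in T.

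The Bcl2l11 difference was 0.33 ± 0.12 (SE), or 1.26-fold, at an unadjusted limma p of 0.0158 and an adjusted p of 0.9985, so it did not pass the test. It was 0.27 within slide 1 and 0.38 within slide 2. It had the same sign in all 24 alternatives, from 0.17 to 0.39. The lowest value came with another background correction, where the unadjusted limma p was 0.131. The probe is dim: its 2 spots read 31.3 to 72.4 intensity units over the 10 arrays, though it was well above background on all of them.

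Bik, a BH3-only gene of the endoplasmic reticulum membrane, read 0.19, 0.33, 0.15, 0.25 and 0.34 in C replicates 1 to 5 and 0.50, 0.47, 0.27, 0.42 and 0.23 in T replicates 1 to 5. The T replicates 1, 2 and 4 were above every C array and the other 2 T arrays were not. The difference was 0.13 ± 0.072 (SE), with 0.26 within slide 1 and 0.014 within slide 2. Bbc3, which encodes PUMA, the p53-induced BH3-only protein, differed by 0.10 ± 0.099 (SE) and Bmf by 0.13 ± 0.12 (SE). Bid, which links death receptors to mitochondria, and Bad, which growth factor signalling holds inactive, differed by -0.049 ± 0.086 (SE) and -0.050 ± 0.058 (SE).

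The 3 pore-forming genes had a median difference of -0.00076, with 1 higher and 2 lower. Bax, a p53 target and an effector of outer membrane opening, read -0.83, -0.75, -0.84, -0.72 and -0.72 in C replicates 1 to 5 and -0.61, -0.73, -0.70, -0.75 and -0.79 in T replicates 1 to 5. The T arrays covered a slightly higher span than the C arrays and 3 of the 5 lay within it. The difference was 0.057 ± 0.057 (SE), which was 0.14 within slide 1 and -0.024 within slide 2.

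Bak1, the second effector, had levels of 0.91, 0.67, 0.70, 0.64 and 0.57 in C replicates 1 to 5 and 0.73, 0.68, 0.70, 0.54 and 0.74 in T replicates 1 to 5. The groups overlapped, with T replicate 4 the lowest of all and C replicate 1 the highest. The difference was -0.020 ± 0.074 (SE). Bok, another relative, differed by -0.00076 ± 0.085 (SE), and its second probe gave 0.021 ± 0.071 (SE).

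Of the 6 genes of the apoptosome and the caspases 1 was higher and 5 were lower in T, with a median difference of -0.019. Apaf1, the scaffold on which caspase 9 is activated, read -1.59, -1.44, -1.61, -1.43 and -1.51 in C replicates 1 to 5 and -1.53, -1.52, -1.52, -1.83 and -1.74 in T replicates 1 to 5. The T replicates 4 and 5 were the lowest of all arrays, the other 3 T arrays lay among the C arrays, and all 5 were below the C median. The difference was -0.11 ± 0.079 (SE) on this probe and -0.067 ± 0.052 (SE) on the second one, and for the first it was 0.018 within slide 1 and -0.23 within slide 2.

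Casp6, an executioner caspase, read 0.40, 0.49, 0.45, 0.42 and 0.45 in C replicates 1 to 5 and 0.45, 0.54, 0.37, 0.45 and 0.53 in T replicates 1 to 5. The highest and the lowest of the 10 values both belonged to T arrays. The difference was 0.025 ± 0.054 (SE). Casp8, the initiator caspase of death receptors, differed by -0.026 ± 0.065 (SE), Casp9 by -0.00074 ± 0.054 (SE) and Cycs, which encodes cytochrome c, by -0.027 ± 0.066 (SE). Diablo, whose product releases caspases from their inhibitors, differed by -0.012 ± 0.050 (SE) and had the smallest SD of all members, 0.0384.

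On the survival side, all 3 BCL2-family genes were lower in T, with a median difference of -0.059, and 0 passed the test. Bcl2 read -2.22, -1.89, -2.24, -1.83 and -1.97 in C replicates 1 to 5 and -2.08, -2.00, -1.93, -2.29 and -2.24 in T replicates 1 to 5. T replicate 4 was the lowest array, T replicate 5 equalled the lowest C array to 2 decimals, and the other T arrays lay among the C arrays. The difference was -0.077 ± 0.10 (SE), but 0.078 within slide 1 and -0.25 within slide 2.

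Mcl1, a short-lived survival protein, read 0.31, 0.30, 0.24, 0.10 and 0.20 in C replicates 1 to 5 and 0.25, 0.16, 0.17, 0.17 and 0.21 in T replicates 1 to 5. The T arrays lay within the wider C range. The difference was -0.038 ± 0.058 (SE). Bcl2l1, which encodes BCL-XL, had 4 tested probes, and their differences ran from -0.085 to -0.016.

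The inhibitors of apoptosis proteins bind caspases or death receptor complexes. Birc3 read -3.49, -4.18, -3.80, -3.77 and -3.94 in C replicates 1 to 5 and -3.79, -3.91, -3.60, -3.43 and -3.42 in T replicates 1 to 5. T replicates 4 and 5 were the highest of all arrays, and the other 3 lay within the C range. The difference was 0.20 ± 0.14 (SE), with -0.031 within slide 1 and 0.37 within slide 2.

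Birc2, its close relative, had levels of -0.54, -0.63, -0.56, -0.74 and -0.60 in C replicates 1 to 5 and -0.68, -0.62, -0.61, -0.39 and -0.40 in T replicates 1 to 5. Here too T replicates 4 and 5 were the highest, and the other 3 T arrays lay among the C arrays. The difference was 0.075 ± 0.076 (SE), -0.071 within slide 1 and 0.20 within slide 2. Xiap, a direct caspase inhibitor, differed by -0.037 ± 0.11 (SE).

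Pro-death genes were then set beside survival genes. Of the 20 measured pro-death genes 10 were higher and 10 lower in T (median difference 0.012), and of the 6 survival genes 2 were higher and 4 lower (median difference -0.038). The median of the pro-death genes minus that of the survival genes was 0.050. As a per-array value, the mean deviation of the pro-death genes from their own means over all arrays was -0.020 ± 0.033 (SD, n = 5) in C and 0.020 ± 0.040 (SD, n = 5) in T, and that of the survival genes was -0.0054 ± 0.058 (SD, n = 5) in C and 0.0056 ± 0.058 (SD, n = 5) in T.

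The pro-death minus survival value was -0.073, -0.029, 0.008, -0.02 and 0.04 in C replicates 1 to 5 and 0.026, 0.071, -0.043, -0.044 and 0.062 in T replicates 1 to 5. The groups overlapped, with the lowest value in C and the highest in T. Their means were -0.015 ± 0.042 (SD, n = 5) and 0.014 ± 0.056 (SD, n = 5), a gap smaller than either SD. Within slide 2 the median difference was -0.017, and within slide 1 it was 0.072, so its sign was not the same on both slides.

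**Figure D3:**
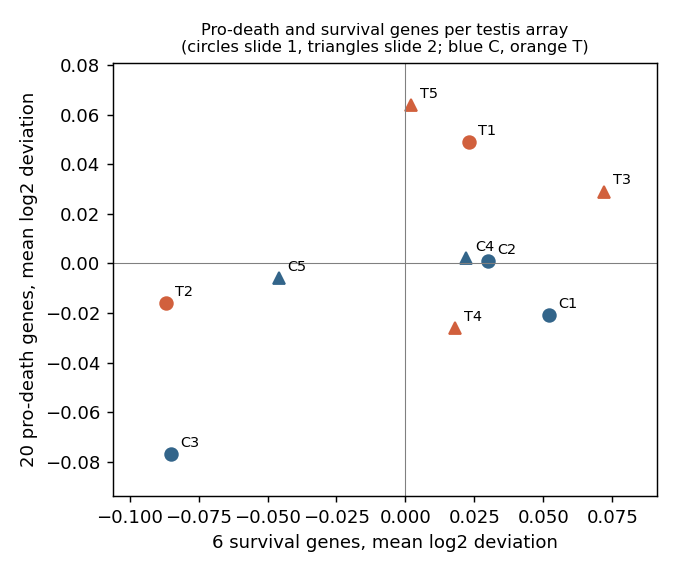
Each point is one array, at the mean log2 deviation of the 6 survival genes (horizontal) and of the 20 pro-death genes (vertical) from their means over the 10 arrays; C is blue, T orange, circles are slide 1 and triangles slide 2. The T arrays range from -0.026 to 0.064 on the vertical axis and the C arrays from -0.077 to 0.002, and the groups overlap on both axes.

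Other genes of the pathway gave 0 calls as well, and Cdkn2a and Nupr1 were the only ones of them at an unadjusted limma p under 0.05. Of 20 genes for p53 and its regulators 14 were measured, 3 higher and 11 lower in T, with a median of -0.057. Cdkn2a, which encodes the p53-stabilising ARF protein as well as a cell cycle inhibitor, differed by 0.21 ± 0.093 (SE), and Atm, the kinase that signals DNA breaks to p53, by -0.22 ± 0.12 (SE).

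Of 23 other p53 targets 16 were measured, 8 higher and 8 lower, with a median of -0.0035. Nupr1, a stress-induced nuclear protein, differed by 0.51 ± 0.15 (SE), and Ak1, an adenylate kinase, by 0.16 ± 0.090 (SE). Of 28 other apoptosis genes 24 were measured, 15 higher and 9 lower, with a median of 0.022. The TNF receptor gene Tnfrsf1a differed by 0.10 ± 0.056 (SE) and Casp2 by -0.087 ± 0.049 (SE). Casp2, a caspase that responds to DNA damage, was lower on every T array than on every C array, as were 0.53% of all probes.

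The slides were compared next, with the group in the model. At an adjusted p under 0.05, 1 of 53 member probes was lower on slide 2, beside 8.63% of all probes, and 0 were higher, beside 1.16% of all probes. The one was the brighter Cdkn1a probe, with a mean of 4.53 ± 0.21 (SD, n = 5) on slide 1 and 3.99 ± 0.19 (SD, n = 5) on slide 2. Of the slide 1 arrays, C replicate 3 alone, at 4.18, lay within the slide 2 range. Before scaling, the spots of this probe read 40480 to 55760 intensity units on slide 1 and 32960 to 39050 on slide 2. On each slide the level was highest in the array with the lowest 75th percentile. These were C replicate 1 (4.75, 1525 units) and C replicate 4 (4.23, 1957 units). C replicate 3, the lowest of slide 1, had the highest 75th percentile there (2686 units). On slide 2 the lowest was T replicate 5 (3.79, 2476 units), although T replicate 4 had 2536. The part of the scaling between arrays in the spread of this probe was not tested. The slide term was -0.54 ± 0.12 (SE; limma adjusted p = 0.0231).

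Leaving out one array at a time kept this Cdkn1a term between -0.63 and -0.49, but the adjusted limma p ranged from 0.00419 to 0.0902. It missed the threshold without C replicate 5 (0.0902), T replicate 1 (0.0847), T replicate 2 (0.0740) or T replicate 4 (0.0533). In these fits 2 other members passed once each, Bbc3 without T replicate 1 and Bcl2l1 without C replicate 3. Without T replicate 1, 1 of the 53 member probes passed, beside 1334 of all 21892 probes. Without C replicate 3, 2 of the 53 passed, beside 2753 of all probes. In neither fit was the share of the members above that of all probes. The dimmer Cdkn1a probe read -1.21, -0.92, -1.09, -0.74 and -0.82 in C replicates 1 to 5 and -0.85, -0.95, -0.89, -1.15 and -0.68 in T replicates 1 to 5. It was not lower on slide 2, and its slide term was 0.15 ± 0.10 (SE; limma adjusted p = 0.442). The probes correlated at r = -0.356 over the 10 arrays, as a description of 2 probes of one transcript on shared arrays. The difference of T and C itself did not vary between slides for any member past the threshold (0 of 53 probes, beside 0% of all probes).

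**Figure D4:**
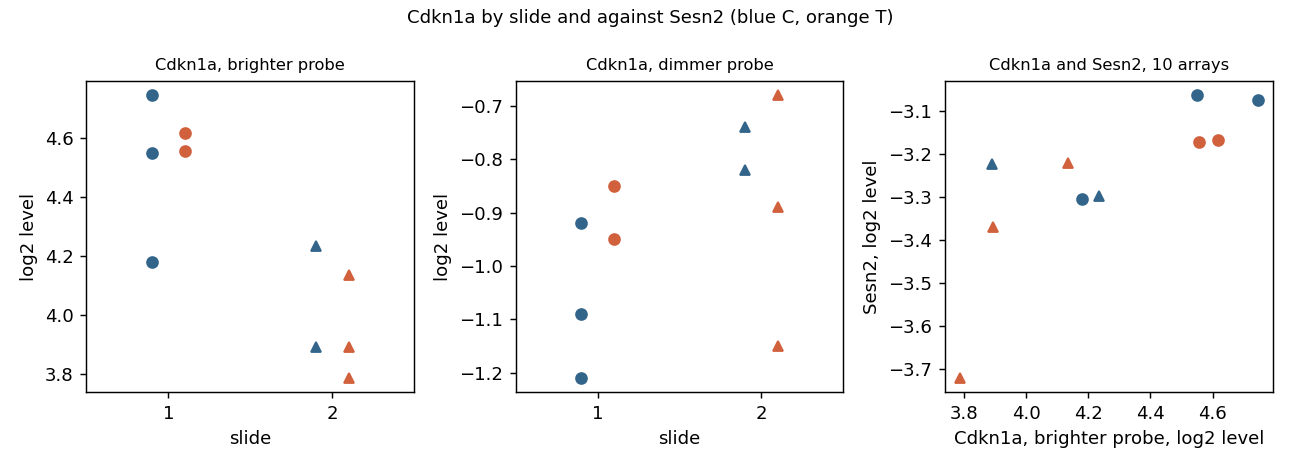
Log2 level of the brighter and the dimmer Cdkn1a probe by slide, and of Sesn2 against the brighter Cdkn1a probe; each point is an array, C blue and T orange, circles slide 1 and triangles slide 2. The brighter probe averages 4.53 on slide 1 and 3.99 on slide 2, and the dimmer one shows no such drop.

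The brighter Cdkn1a probe was compared with each of the other 38 measured members across the 10 arrays by permutation tests with 100000 resamples, two-sided. After Benjamini-Hochberg adjustment over the 38 pairs, 0 passed, with a lowest adjusted permutation p of 0.0562 for Pearson's r and 0.334 for Spearman's rho. The highest correlation was with Sesn2 (r = 0.777, permutation p = 0.00148; rho = 0.794, permutation p = 0.00878). Without C replicate 1 and T replicate 5, the arrays farthest from the Cdkn1a median, r was 0.732, and with group and slide means removed it was 0.669. The lowest was with Xpc (r = -0.789, permutation p = 0.00787, adjusted p = 0.150; rho = -0.673, permutation p = 0.0375). Its r was -0.928 without those arrays, which passed (adjusted permutation p = 0.0144), and -0.513 with group and slide means removed. Since Cdkn1a differed by slide, the pairs were also compared with group and slide means removed. Xiap then had the highest r (0.883), at an adjusted permutation p of 0.0323. That p is too small, because the permutation treated the values left after removing the means as freely exchangeable between arrays. Xiap is therefore not counted as passing. With the dimmer Cdkn1a probe, the r of Sesn2 was -0.442. Within a slide, the level of the brighter probe went largely against the array's 75th percentile, as given above. The part of that scaling in these correlations was not tested. A correlation was computed only over at least 6 arrays, so none is given within a slide of 5.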

How the data were processed

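From 100 ng of DNase-treated total RNA per sample, Cy3-labelled copies were made for one-colour Agilent arrays, per the labels' protocols. The deposited scanner files hold spot intensity values from which, per the file headers, Feature Extraction 10.7.3.1 had subtracted the background; the submitters' processing notes give version 10.7. They were not scaled between arrays. The authors' deposited value table holds log2 values centred on each probe, in 21220 rows. Of these rows 27 were controls, and the other 21193 probes were used. Against the scanner values the columns of the value table correlated at 0.9978 to 0.9987, and their medians ran from -0.0171 to 0.0291. The scaling between arrays stays unknown. The value table served as an alternative. The array was designed on another genome build, so probes have no coordinates here.

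The 4259 control spots were left out, spots with an outlier flag (494 to 745 per array) were set missing, replicate spots were averaged into one value per probe, and probes well above background on at least 5 arrays were kept. Transcript accessions were matched without version to RefSeq's GRCr8 gene table, which named 17998 probes and left 12369 unnamed. The T minus C difference was fitted with limma 3.58.1 in R 4.3.3 (lmFit, eBayes, two-sided; Benjamini-Hochberg over all 21892 probes; threshold 0.05). Tested on simulated data for this comparison, with 200 changed probes among 21870, the fit recovered 63.5% of 1.5-fold and 83.5% of 2-fold changes. It also called 7 and 6 unchanged probes. The simulated noise was independent between probes and held no difference between slides, so these shares need not hold for the real arrays. The number of arrays limits the precision. Members, gene lists and tests were chosen with earlier results of these data known. Values per array are given for members whose groups do not overlap, the 2 with the smallest unadjusted p in each role, Cdkn1a, Mdm2, Bax, Bcl2, Mcl1 and Bcl2l11, and members with a slide or interaction call; Ccng1, Gadd45g and Fas were named for their spread after the values were seen. Of each other pathway list, the 2 genes with the smallest unadjusted p are named, and 1 gene that another clause of the rule named is not reported here. Alternatives covered background correction, scaling, the filter, flagged spots, the variance model, slide, sire code, source of values, choice of probe and leaving out each array.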

Additional observations from a re-analysis of the deposited data

Results flagged for a closer look

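In each group of 5 arrays, a value was singled out when its gap to the nearest other value was large against the whole range of its group (Dixon's criterion). Of the 78 groups of values examined, 2 for each of the 39 members, 6 held such an array. For independent normal values the criterion marks about 1 group in 20. The share over all genes was not computed, so 6 of 78 is not read as an excess. The cause of none was tested.

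Ccng1 stood at -1.16 in T replicate 5, with the other T arrays between -3.19 and -3.08. Plk3 stood at -2.39 in T replicate 5, below the -2.08 to -2.00 of the other T arrays. Bak1 stood at 0.54 in T replicate 4, below the 0.68 to 0.74 of the others in its group. Cycs was lowest on the same array, at 2.30 against 2.49 to 2.55. Bok stood at 4.22 in C replicate 3, below the 4.41 to 4.49 of the other C arrays. Diablo stood at 2.22 in C replicate 1, where the other C arrays read 2.30 to 2.31.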

How the results depend on the processing

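Each member's T minus C difference was recomputed in 24 other ways, which gave 936 values for the 39 genes: 0 passed the adjusted limma threshold, the lowest adjusted p was 0.8478, and 85 had the other sign, each of them with at least one of the 2 differences within its SE. The differences of Mdm2, Plk3, Zmat3, Tp53inp1, Bcl2l11, Bik and Bad kept their sign in all 24. The number of member probes at an unadjusted limma p under 0.05 ran from 0 of 53, with normexp background correction, to 3 of 53, without C replicate 4. Of all 21892 probes, 220 were higher and 261 lower at that limma p with normexp. Without C replicate 4, 435 were higher and 500 lower.

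The pro-death minus survival median was 0.050; it was -0.0171 within slide 2, between 0.0104 and 0.0724 when one array was left out, and between 0.0358 and 0.0718 otherwise. With normexp background correction, 2 member probes passed for the slide, Cdkn1a (-0.54, limma adjusted p = 0.0109) and one of the Bcl2l1 probes (-0.27, limma adjusted p = 0.0332). The share of all probes passing in that fit is not given here. Without normexp, 8.63% of all probes were lower on slide 2. Correlations with Cdkn1a passed for 2 members with normexp, Sesn2 (r = 0.903, adjusted permutation p = 0.00038) and Casp8 (r = 0.816, adjusted permutation p = 0.0405). Without C replicate 1 and T replicate 5, 1 passed, Xpc (r = -0.928, adjusted permutation p = 0.0144). With group and slide means removed, Xiap had r = 0.883 and an adjusted permutation p of 0.0323, which is too small for the reason given above. The cause was not tested. The use of the dimmer Cdkn1a probe, where 0 passed, and the omission of each array from the slide comparison were chosen after seeing the data.

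Sires numbered 2, 4 and 6 occur in both groups, and the deviations of arrays with the same number from their group means correlated at r = -0.512, 0.282 and 0.194. The pair with the negative r, C replicate 5 and T replicate 1, lay on different slides. The other pairs each shared a slide, and slide means were not removed. These values therefore cannot decide whether the numbers pair the arrays, and the T minus C fit above used no pairing. A fit with that number as a replicate block used only the arrays of sires 2, 4 and 6. It left out C replicates 1 and 3 and T replicates 4 and 5. In that fit 0 probes of 21892 passed, and 372 were higher and 325 lower at an unadjusted limma p under 0.05. The members' median was 0.0138 and the pro-death minus survival median 0.0358.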

Other observations

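In 6 of the 39 members (15.4%), T replicates 4 and 5, both on slide 2, lay beyond every C array on the same side, and the other 3 T arrays did not. Of 11557 genes with a value on every array, 872 did so (7.55%), 314 higher and 558 lower. Sesn2, Apaf1 and Bcl2 were lower there, and Xpc, Birc2 and Birc3 higher, although for Bcl2 and Xpc the value of T replicate 5 equalled that of the nearest C array to 2 decimals. This pair of arrays was picked after the values were seen, so the shares are a description with no test. The sire codes of these 2 arrays, and of C replicate 5, carry a 2 before the letter R, whose meaning the labels do not give. C replicate 5 was the highest C array for Xpc, and it was neither the highest nor the lowest C array for Sesn2, Apaf1, Bcl2, Birc2 and Birc3.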
